A study of Mus musculus with 11 samples.

Results

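The genes described here are 37 genes of glycolysis and the hypoxia response: glycolytic enzymes, the glucose and lactate transporters Slc2a1, Slc16a1 and Slc16a3, the transcription factor gene Hif1a with its oxygen sensors, and genes known to be driven by that factor. They were chosen by symbol for their known roles, and all 37 were among the 16934 genes of the count table. The 11 libraries hold 3′-end reads of mRNA from primary microglia, the macrophages of brain tissue, raised over 7 to 10 days from C57BL/6 pups of postnatal day 0 to 3. Microglia cultured alone gave 4 libraries, and microglia kept for 6 h with primary cortical neurons at day 14 in culture gave the rest. The neurons had been left untreated for 3 of these libraries. For the other 4 they had taken up fluorescently labelled fibrils of α-synuclein, whose aggregates mark Parkinson's disease, over 16 h at 0.1 µM, and had been washed. How microglia were separated from neurons before RNA isolation is not given in the sources used here. The labels do not name the culture or animal behind a library. Serial numbers in the titles step by 7 within every group and so fall into 4 sets, 3 with a library of each group and 1 without an untreated co-culture, but what a set shares is not stated. Each p-value therefore reflects only the spread among these libraries, which may be technical.

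Glycolysis splits glucose into pyruvate and yields ATP without oxygen. Glucose enters through transporters such as Slc2a1 and is trapped by hexokinases, and pyruvate that is not burned in mitochondria is reduced to lactate by Ldha and leaves through the monocarboxylate transporters Slc16a1 and Slc16a3. When oxygen is low, the prolyl hydroxylases encoded by Egln1 and Egln3 stop marking the HIF subunit encoded by Hif1a for destruction, and HIF then binds short hypoxia response elements and raises genes of glucose uptake, glycolysis, mitophagy and vessel growth. Inflammatory activation of myeloid cells, microglia included, is also known to raise Hif1a and to shift metabolism towards glycolysis.

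Total counts per library ran from 8253070 to 16802451, and between 9157 and 11739 genes had a count. The ribosomal RNA precursor Rn45s took 14.001% to 24.8% of counts in microglia alone, 10.7% to 15.7% with untreated and 10.97% to 17.01% with fibril-loaded neurons. Library 1 of microglia alone had the highest share. The 15 microglial markers, all detected in every group, summed to between 11685 and 13113 CPM (the count scaled to the library's total after TMM adjustment) in microglia alone, 15695 and 18887 with untreated neurons, and 13263 and 19555 with fibril-loaded neurons. The 20 neuron markers summed to between 124 and 212 CPM in microglia alone, against 5.10 to 45.2 with untreated and 28.6 to 62.8 with fibril-loaded neurons. Of these 20, 6 were at 0 counts in microglia alone, 10 in untreated and 6 in fibril-loaded co-cultures, and Snap25, Slc17a6, Sst and Neurod6 were at 0 in every group. The 10 astrocyte markers summed to between 13.4 and 26.001 CPM in microglia alone, 25.7 and 122 with untreated and 12.2 and 89.8 with fibril-loaded neurons. In microglia alone Gfap, Aldh1l1 and Fgfr3 were at 0, and beside untreated neurons Gja1 and Fgfr3 were. The 10 oligodendrocyte markers, all detected in every group, summed to between 184 and 305 CPM in microglia alone. With untreated neurons they summed to between 273 and 329 CPM, and with fibril-loaded neurons to between 163 and 356 CPM. These shares and marker sums moved with the groups to differing degrees, and their part in the results below was not tested. In bulk RNA, fewer cells of a type and less RNA per cell cannot be told apart.

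The HIF pathway genes and the glycolytic genes lay differently across the cultures. The 18 genes of the HIF factor, its sensors and its targets summed to 396, 625, 531 and 414 CPM in the 4 libraries of microglia alone, to 758, 769 and 846 CPM with untreated neurons and to 491, 551, 593 and 603 CPM with fibril-loaded neurons. Each library with untreated neurons lay above each library of the other groups. The 19 glycolytic and transporter genes summed to 5016, 5033, 3720.4 and 3687 CPM in microglia alone, to 3895, 3902 and 3126 CPM with untreated and to 3303, 3542, 3032.5 and 3549.6 CPM with fibril-loaded neurons. All 4 libraries with fibril-loaded neurons were below all 4 of microglia alone. These sums weigh abundant genes most, such as Pkm in the glycolytic sum. In the HIF pathway sum, P4ha1, Bnip3 and Hif1a had means of 60.9, 21.3 and 37.3 CPM in microglia alone. With untreated neurons their means were 141, 76.6 and 92.4 CPM. Of the 18 genes, 14 had a log2 fold change above 0 in that comparison, but only P4ha1 was higher without overlap of libraries. Both sums describe a list chosen with earlier results of these data known, and carry no test. No single gene of the 37 passed edgeR's quasi-likelihood test after Benjamini-Hochberg (BH) adjustment over the 11276 genes tested, in any of the 3 comparisons given further on.

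**Figure D1:**
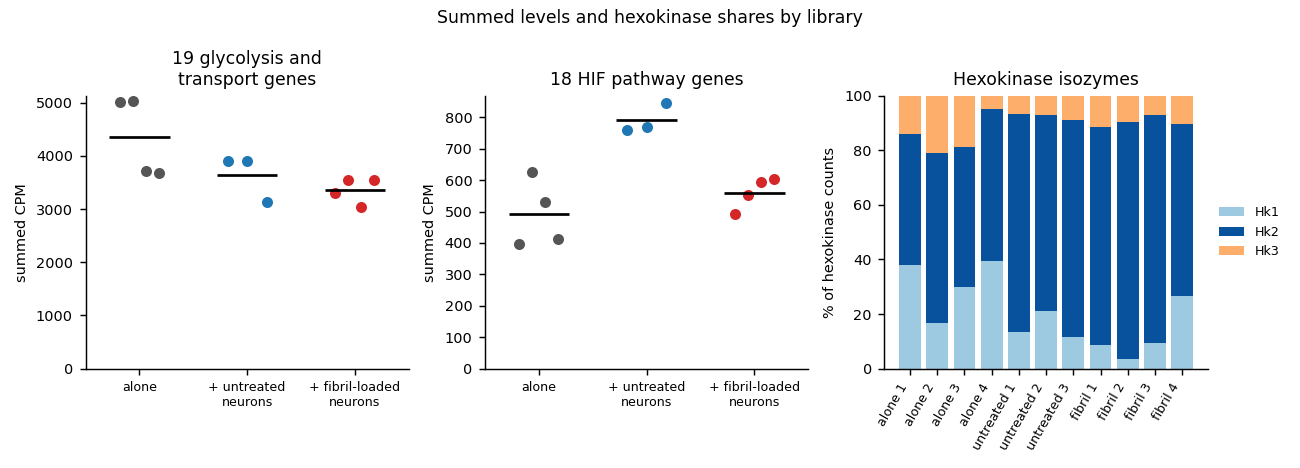
Summed level of the 19 glycolysis and transport genes and of the 18 HIF pathway genes in each library, in CPM, with the group mean as a line, and the share of hexokinase counts from each of 3 isozymes in each library, in percent. The HIF pathway sum is 758 to 846 CPM with untreated neurons and at most 625 CPM elsewhere, and the Hk2 share is 48.1% to 62.4% in microglia alone and 62.9% to 86.9% in the co-cultures.

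Promoter windows are shown for the genes with the smallest unadjusted p of the 37 over the 3 comparisons, since HIF is known to act through a short element whose core is ACGTG or GCGTG. Windows run from 250 bases before to 50 bases after an annotated start and come from RefSeq on GRCm38.p6, the assembly that mm10 names. Capitals mark every match to ACGTG or GCGTG on either strand, and ACGTG is also part of the palindromic E-box CACGTG, where it matches on both strands. Hk2, P4ha1, Hif1a and Gpi1 were taken by rule, and Bnip3 was added after its values were seen; Ndrg1 has no window here. The Hif1a window lies at a start inside the gene.
Hk2, chr6:82774405-82774704, minus strand: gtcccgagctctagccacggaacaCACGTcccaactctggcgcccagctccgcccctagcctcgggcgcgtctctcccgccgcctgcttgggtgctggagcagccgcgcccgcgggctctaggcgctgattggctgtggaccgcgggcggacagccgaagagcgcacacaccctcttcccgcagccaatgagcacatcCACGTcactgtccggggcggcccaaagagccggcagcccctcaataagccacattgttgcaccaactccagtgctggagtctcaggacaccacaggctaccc
P4ha1, chr10:59323046-59323345, plus strand: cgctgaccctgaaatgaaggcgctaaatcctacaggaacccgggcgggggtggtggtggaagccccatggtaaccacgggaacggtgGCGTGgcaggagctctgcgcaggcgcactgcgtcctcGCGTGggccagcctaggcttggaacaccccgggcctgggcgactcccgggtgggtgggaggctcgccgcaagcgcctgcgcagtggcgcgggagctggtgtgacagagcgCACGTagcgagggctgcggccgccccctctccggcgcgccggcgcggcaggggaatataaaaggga
Hif1a, chr12:73907617-73907916, plus strand: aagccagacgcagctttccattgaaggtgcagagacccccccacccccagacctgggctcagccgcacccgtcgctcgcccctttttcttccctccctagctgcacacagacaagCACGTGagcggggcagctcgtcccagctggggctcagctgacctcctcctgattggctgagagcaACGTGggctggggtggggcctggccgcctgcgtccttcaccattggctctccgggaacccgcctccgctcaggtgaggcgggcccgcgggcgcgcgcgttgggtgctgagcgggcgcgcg
Gpi1, chr7:34230287-34230586, minus strand: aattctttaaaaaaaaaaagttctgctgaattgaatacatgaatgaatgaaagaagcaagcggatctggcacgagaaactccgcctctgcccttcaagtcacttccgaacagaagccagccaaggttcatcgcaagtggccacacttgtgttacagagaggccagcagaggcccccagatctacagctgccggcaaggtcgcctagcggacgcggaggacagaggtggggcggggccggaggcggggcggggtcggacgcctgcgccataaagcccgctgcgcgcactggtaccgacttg
Bnip3, chr7:138909457-138909756, minus strand: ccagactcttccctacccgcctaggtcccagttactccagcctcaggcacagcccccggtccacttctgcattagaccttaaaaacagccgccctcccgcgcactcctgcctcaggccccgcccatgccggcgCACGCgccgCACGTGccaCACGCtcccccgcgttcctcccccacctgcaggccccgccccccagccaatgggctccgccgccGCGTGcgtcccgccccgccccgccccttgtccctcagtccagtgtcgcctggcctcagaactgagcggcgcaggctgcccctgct

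Counting the base before the start as -1, the matches begin at -226 and -52 in Hk2, at -163, -126 and -16 in P4ha1, at -135, -134 and -70 in Hif1a and at -117, -108, -107, -99 and -35 in Bnip3. The pairs at -135 and -134 in Hif1a and at -108 and -107 in Bnip3 are each 1 E-box. Gpi1 and Tpi1 held no match in their windows. Pgam1, which like Gpi1 was lower beside neurons, held 3 matches, and a link of matches to direction was not tested. Of the 37 genes, 34 had at least 1 window, and 32 of these 34 (94.1%) held a match in at least 1 of them, against 46.7% of all 27025 genes with a window. Among genes with a single window the match was held by 20 of 22 (90.9%), against 43.1% of 22862. The genes were chosen as known glycolytic and HIF-driven genes, so this share describes the choice and not these cultures, and a match is not a site of binding. Bnip3l, Bhlhe40 and Ndrg1 had no window. Full gene bodies in mm10 are at chromosome 6, 82725025 to 82774454, for Hk2, chromosome 10, 59323197 to 59373304, for P4ha1, chromosome 12, 73901324 to 73947554, for Hif1a, chromosome 7, 34201327 to 34230336, for Gpi1, chromosome 7, 138890836 to 138909506, for Bnip3 and chromosome 15, 66929318 to 66969641, for Ndrg1.

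Hexokinase 2, the inducible hexokinase of muscle and activated immune cells, was higher beside neurons of either kind. Hk2 stood at 109.8, 164, 124 and 177 CPM in microglia alone, 389, 315 and 298 CPM with untreated neurons and 261, 345, 361 and 184 CPM with fibril-loaded neurons. Every co-culture library was above every library of microglia alone, and the lowest of the co-cultures, library 4 with fibrils, lay just above the highest of microglia alone. The log2 fold change was 1.22 (SE 0.30, edgeR BH-adjusted p = 0.0704) with untreated and 1.00 (SE 0.28, adjusted p = 0.179) with fibril-loaded neurons, and neither passed. Between the co-cultures it was -0.21, with a 95% interval of -0.84 to 0.41.

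Hk1, the housekeeping hexokinase that is the main form in brain, was not higher. It was at 86.3, 43.5, 72.98 and 126 CPM in microglia alone, 66.03, 91.7 and 43.1 CPM with untreated and 28.5, 13.5, 40.5 and 77.97 CPM with fibril-loaded neurons, and the groups overlapped. The log2 fold change with fibril-loaded neurons against microglia alone was -1.03 (SE 0.48, edgeR unadjusted p = 0.042, adjusted p = 0.595), and the unadjusted p was above 0.05 in 6 of 8 fits that left out 1 library. Hk3, the hexokinase of myeloid cells, was at 37.1 ± 16.8 CPM (SD, n = 4), 32.8 ± 1.90 CPM (n = 3) and 34.2 ± 4.33 CPM (n = 4). It overlaps Unc5a in the annotation (157 counts over all libraries against 4797 for Hk3), so part of its reads is uncertain. With 3′ counts, which are not scaled by transcript length, Hk2 supplied 48.1%, 62.4%, 51.2% and 55.4% of all hexokinase counts in microglia alone, 79.6%, 72.1% and 79.4% with untreated neurons and 79.8%, 86.9%, 83.6% and 62.9% with fibril-loaded neurons. The share was above microglia alone in all 7 co-culture libraries, by the narrowest margin in library 4 with fibrils. Reads of Hk1 and of the overlapping gene Hk1os cannot be told apart if strand was not used in counting, which the sources used here do not state; Hk1os held 52 counts over all libraries against 8853 for Hk1.

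Slc2a1, the basal glucose transporter, was at 27.7, 21.9, 34.7 and 4.01 CPM in microglia alone, 30.5, 58.7 and 44.03 CPM with untreated and 31.9, 34.8, 40.5 and 70.1 CPM with fibril-loaded neurons. Its groups overlapped, and the log2 fold change of 1.01 was the same to 2 decimals in both co-cultures (SE 0.62 and 0.59, edgeR adjusted p = 0.645 and 0.805). Within the sets of title serial numbers it was above microglia alone in 3 of 3 sets with untreated and 4 of 4 with fibril-loaded neurons. In 1 set this was nearly a tie, at 34.7 CPM in microglia alone and 34.8 CPM with fibril-loaded neurons. The share of all genes higher in every set was not counted. With the sets as a term the edgeR adjusted p was 0.649 and 0.796. Slc16a3, the lactate exporter of glycolytic cells, was at 8.54, 64.8, 20.5 and 44.9 CPM in microglia alone, 64.5, 44.1 and 75.3 CPM with untreated and 32.9, 40.6, 40.3 and 35.4 CPM with fibril-loaded neurons. Its libraries beside untreated neurons all lay above those beside fibril-loaded neurons, while microglia alone spanned both, and the log2 fold change between the co-cultures was -0.72 (SE 0.56, adjusted p = 1). Slc16a3 overlaps Csnk1d in the annotation, so part of its reads is uncertain. Slc16a1, a transporter that moves lactate in either direction, was low, with group means of 5.49, 3.96 and 3.64 CPM.

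Among the enzymes that carry glucose 6-phosphate down to triose phosphates, Gpi1 and Aldoa were lower in every co-culture library than in microglia alone. Neither passed after adjustment, and libraries of the other enzymes overlapped between groups. Gpi1, which turns glucose 6-phosphate into fructose 6-phosphate, was at 352, 227, 188 and 330.5 CPM in microglia alone, 134, 183 and 155 CPM with untreated and 149, 156, 104 and 161 CPM with fibril-loaded neurons. All 7 co-culture libraries were below all 4 of microglia alone. The log2 fold change was -0.80 (SE 0.31, edgeR unadjusted p = 0.0178, adjusted p = 0.383) with untreated and -0.94 (SE 0.29, unadjusted p = 0.00344, adjusted p = 0.227) with fibril-loaded neurons. Aldoa, the aldolase of most tissues, was at 729.5, 372, 345 and 367 CPM in microglia alone, 288, 334 and 322 CPM with untreated and 280.5, 334, 281 and 320.2 CPM with fibril-loaded neurons. Its co-culture libraries were again all below microglia alone, but library 1 of microglia alone stood far above the other 3. Without that library the log2 fold change with fibril-loaded neurons went from -0.58 (edgeR unadjusted p = 0.0451) to -0.23 (unadjusted p = 0.343). With untreated neurons and all libraries it was -0.53 (edgeR unadjusted p = 0.0887, adjusted p = 0.568).

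Phosphofructokinase makes the committed step of glycolysis, and its 3 subunit genes varied widely between libraries. Pfkl ran from 0 to 50.4 CPM over the 11 libraries, Pfkm from 0 to 15.4 CPM and Pfkp from 8.36 to 81.3 CPM. Pfkfb3, which makes the activator of phosphofructokinase and is known to be induced by HIF, was steadier, at 61.2, 28.96, 30.6 and 41.8 CPM in microglia alone, 43.5, 45.97 and 41.6 CPM with untreated and 51.3, 37.6, 56.96 and 61.4 CPM with fibril-loaded neurons. Its log2 fold changes against microglia alone were 0.10 with a 95% interval of -0.85 to 1.06 and 0.35 with an interval of -0.53 to 1.24. Tpi1, the triose phosphate isomerase, had means of 124 ± 76.3, 157 ± 52.3 and 104 ± 12.7 CPM. Reads of Pfkp, Pfkm and Tpi1 are uncertain in part, since each overlaps another counted gene (Pitrm1, Senp1 and Spsb2).

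The enzymes from glyceraldehyde 3-phosphate to pyruvate had lower or nearly equal means beside neurons, apart from Eno1. Gapdh, the dehydrogenase often used as a reference gene, was at 566, 329, 309.6 and 359.7 CPM in microglia alone, 238, 313 and 277 CPM with untreated and 288, 281, 245 and 292 CPM with fibril-loaded neurons. Only the libraries with fibril-loaded neurons were all below microglia alone, and the log2 fold change was -0.50 (edgeR adjusted p = 0.567) with untreated and -0.50 (adjusted p = 0.688) with fibril-loaded neurons. Pgam1, the phosphoglycerate mutase, was at 669.8, 390.2, 398 and 428 CPM in microglia alone, 372, 271 and 319 CPM with untreated and 241, 379, 302 and 323 CPM with fibril-loaded neurons. Both co-cultures lay below microglia alone, where library 1 was again the highest; without it the log2 fold change with fibril-loaded neurons went from -0.60 (edgeR unadjusted p = 0.033) to -0.37 (unadjusted p = 0.168).

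Pkm, the pyruvate kinase, was at 1362, 1857, 896 and 986 CPM in microglia alone, 1082, 1056 and 476 CPM with untreated and 749.8, 754, 696 and 891 CPM with fibril-loaded neurons. The libraries with fibril-loaded neurons were all below microglia alone (log2 fold change -0.72, SE 0.29, edgeR unadjusted p = 0.0208, adjusted p = 0.509), the nearest pair differing by only a few CPM. Without library 2 of microglia alone the log2 fold change was -0.46 (unadjusted p = 0.121). Ldha, which makes lactate and is a classical HIF target, was at 317, 395, 347 and 128 CPM in microglia alone, 261, 324 and 304 CPM with untreated and 324, 375, 236 and 238 CPM with fibril-loaded neurons. Its group means were 297, 296 and 293 CPM, and the 95% intervals of its log2 fold changes against microglia alone ran from -0.69 to 0.68 and from -0.66 to 0.62. Pgk1, the phosphoglycerate kinase, had means of 433, 402 and 378 CPM. Eno1, the enolase, had means of 208, 202 and 225 CPM, but its near-identical copy Eno1b is counted apart, at 3.93 to 224 CPM, so neither level is certain. Copies of Gapdh, Pgk1, Ldha, Pkm, Aldoa, Tpi1 and Pgam1 elsewhere in the genome could take reads from these genes too.

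**Figure D2:**
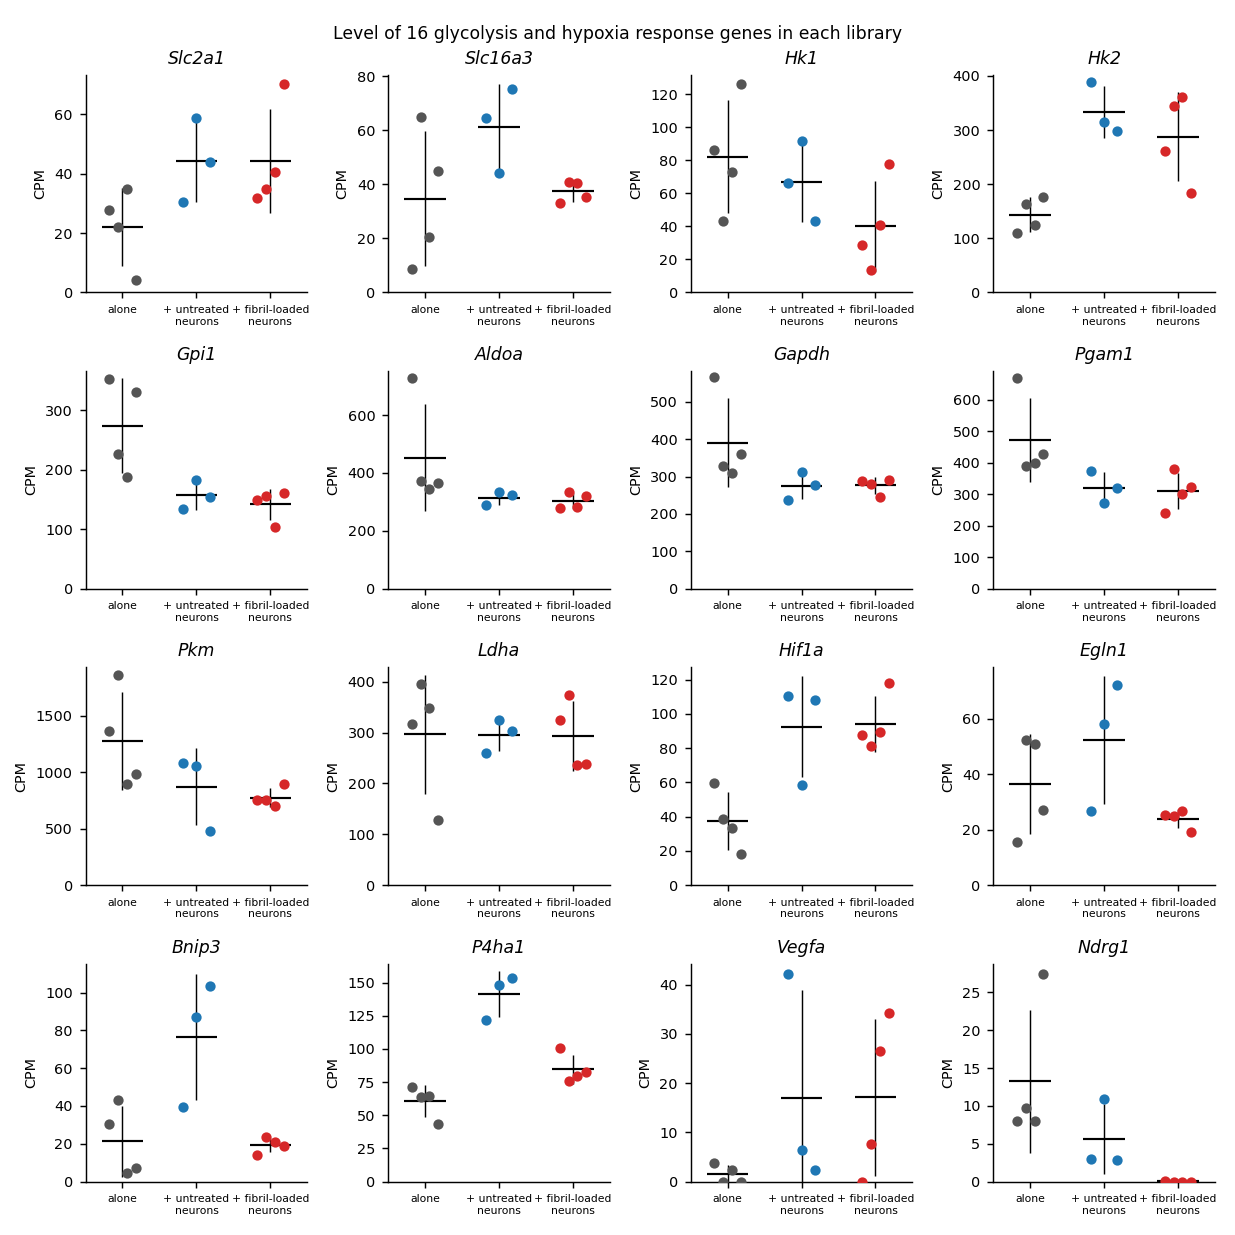
Level of 16 of the genes in each library, in CPM on linear axes from 0, with 1 point per library, the group mean as a horizontal line and 1 SD as a vertical line. Hk2 and P4ha1 are above microglia alone in all co-culture libraries, Gpi1, Aldoa and Pgam1 are below it in all of them, and Bnip3 is at 39.2 to 103 CPM with untreated against 14.2 to 23.5 CPM with fibril-loaded neurons.

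Hif1a transcript was higher beside neurons, with or without fibrils. It was at 59.4, 38.4, 33.6 and 17.98 CPM in microglia alone, 111, 58.3 and 108 CPM with untreated and 87.4, 81.04, 89.3 and 118 CPM with fibril-loaded neurons. All libraries with fibril-loaded neurons were above microglia alone, and so were 2 of 3 with untreated neurons, where library 2 was just below the highest library of microglia alone. The log2 fold change was 1.31 (SE 0.41, edgeR unadjusted p = 0.00454, adjusted p = 0.201) with untreated and 1.33 (SE 0.39, unadjusted p = 0.00259, adjusted p = 0.2) with fibril-loaded neurons. Between the co-cultures it was 0.02, with a 95% interval of -0.84 to 0.88. Transcript level says nothing of the HIF protein, which is controlled largely by its destruction.

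Of the oxygen sensors, Egln1, the main prolyl hydroxylase and itself a HIF target, was at 15.6, 52.4, 50.9 and 26.9 CPM in microglia alone, 26.7, 58.2 and 72.004 CPM with untreated and 25.3, 24.9, 26.7 and 19.1 CPM with fibril-loaded neurons. The highest library with fibril-loaded neurons was just under the lowest with untreated neurons (26.65 against 26.73 CPM), and the log2 fold change between them was -1.12 (SE 0.57, edgeR unadjusted p = 0.0608, adjusted p = 1). Egln3, the strongly HIF-induced sensor, ran from 0 to 29.1 CPM, with 1 library of each group at 0.

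Bnip3, the HIF-induced receptor that marks mitochondria for removal, was higher with untreated neurons than in either other group. It was at 30.5, 43.3, 4.34 and 7.11 CPM in microglia alone, 39.2, 87.02 and 103 CPM with untreated and 14.2, 23.5, 20.7 and 19.05 CPM with fibril-loaded neurons. Each library with untreated neurons was above each with fibril-loaded neurons, whereas library 2 of microglia alone was above the lowest of them. The log2 fold change was 1.85 (SE 0.69, edgeR unadjusted p = 0.0136, adjusted p = 0.334) for untreated neurons against microglia alone. Between fibril-loaded and untreated neurons it was -1.98 (SE 0.69, unadjusted p = 0.00884, adjusted p = 1). Group means of the other mitochondrial targets lay closer together. The related mitophagy receptor gene Bnip3l had means of 94.1, 108 and 78.3 CPM. Pdk1, the kinase that keeps pyruvate out of mitochondria, had means of 46.3, 31.95 and 26.6 CPM, and the respiratory supercomplex factor gene Higd1a 54.2, 76.3 and 65.1 CPM. No one of these 3 reached an unadjusted p of 0.05 in any comparison, and a difference of their changes from that of Bnip3 was not tested.

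P4ha1, a subunit of the prolyl hydroxylase that modifies collagen, separated all 3 groups. It was at 71.3, 63.8, 64.7 and 43.7 CPM in microglia alone, 122, 148 and 154 CPM with untreated and 101, 75.8, 79.4 and 82.5 CPM with fibril-loaded neurons. Libraries of the 3 groups did not overlap: microglia alone were lowest, fibril-loaded co-cultures in between and untreated co-cultures highest. The log2 fold change was 1.21 (SE 0.33, edgeR adjusted p = 0.101) for untreated neurons against microglia alone, 0.47 (SE 0.30, adjusted p = 0.877) for fibril-loaded neurons against microglia alone and -0.74 (SE 0.32, unadjusted p = 0.033, adjusted p = 1) between the co-cultures, where the unadjusted p was above 0.05 in 5 of 7 fits that left out 1 library. The related subunit gene P4ha2 had means of 5.95 ± 4.36, 22.4 ± 10.8 and 7.96 ± 7.34 CPM, in the same order, with overlapping libraries.

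Vegfa, the vessel growth factor that is the best known HIF target, was low and uneven. It was at 3.76, 0, 2.30 and 0 CPM in microglia alone, 42.1, 6.45 and 2.37 CPM with untreated and 0, 7.71, 26.6 and 34.2 CPM with fibril-loaded neurons. At least 1 library of each co-culture was within the range of microglia alone, and the log2 fold changes of 3.48 and 3.49 had SEs of 1.86 and 1.80 (edgeR adjusted p = 0.537 and 0.688). Adm, the vasodilator peptide gene, had counts in only 1 library of each group.

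Ndrg1, a hypoxia- and stress-induced gene, was nearly absent beside fibril-loaded neurons. It was at 7.99, 9.72, 7.97 and 27.4 CPM in microglia alone and 3.02, 10.9 and 2.79 CPM with untreated neurons, and only 1 count was found in the 4 libraries with fibril-loaded neurons, against 618 counts in microglia alone and 219 with untreated neurons. Scaled to library size, the ratio was 653 (95% counting interval 117 to 25820) for microglia alone over fibril-loaded neurons and 239 (42.5 to 9492) for untreated over fibril-loaded neurons. Such intervals cover counting error only. In edgeR, which includes the spread between libraries, the unadjusted p was 0.000866 and 0.00235 and the adjusted p 0.125 and 1.

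For the remaining targets the libraries of the groups overlapped in all 3 comparisons. Hilpda, the lipid droplet gene of hypoxic cells, had means of 38.04 ± 8.50, 73.3 ± 38.6 and 63.2 ± 22.04 CPM (edgeR unadjusted p = 0.0529 for untreated neurons against microglia alone). Mxi1, a Myc antagonist, had means of 29.9, 42.5 and 40.7 CPM, and Kdm3a, a histone demethylase, 17.1, 23.6 and 17.6 CPM. Ddit4, an inhibitor of mTORC1 signalling, had 17.1, 7.65 and 4.17 CPM. The transcription factor gene Bhlhe40 had 3.61, 4.38 and 3.35 CPM, and Ankrd37, a small ankyrin repeat gene whose locus overlaps the counted gene Ufsp2, 6.89, 1.32 and 2.89 CPM.

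**Figure D3:**
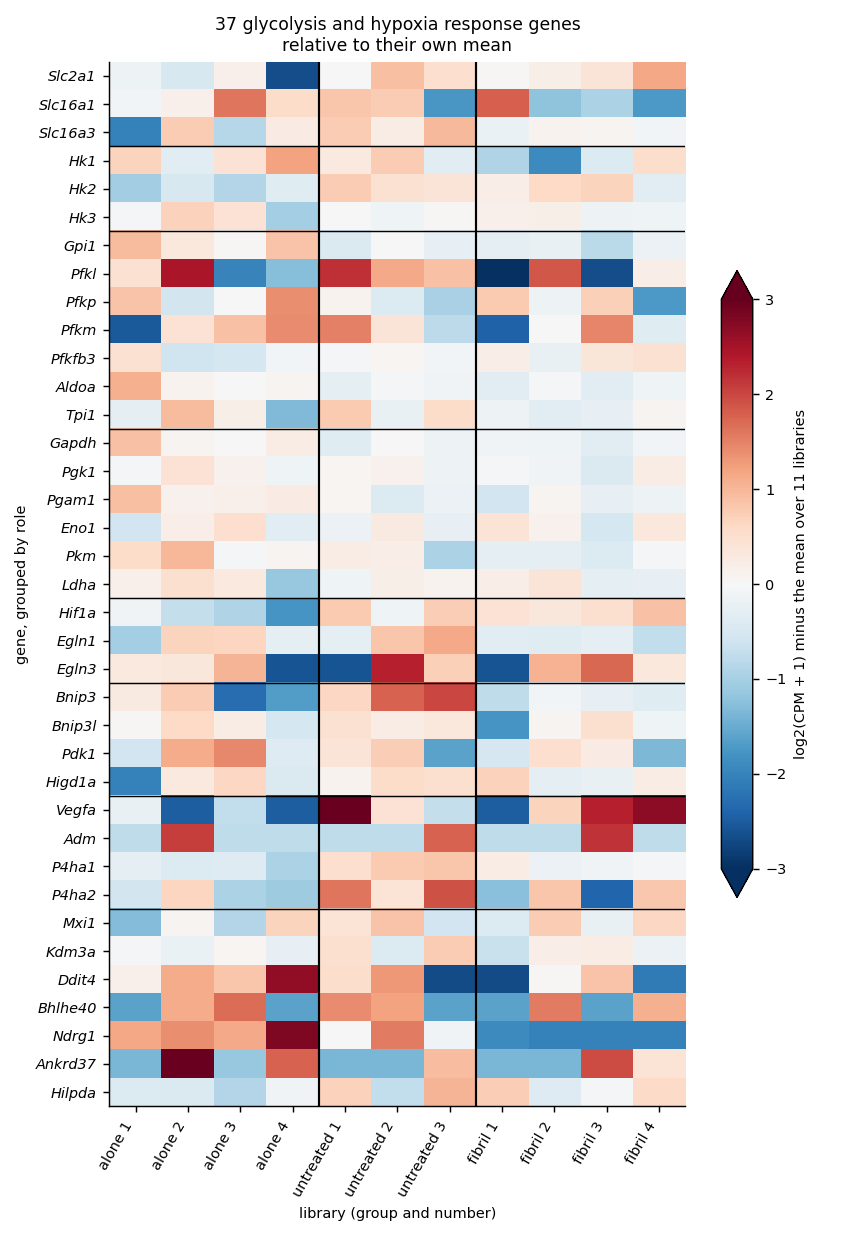
Level of all 37 genes in all 11 libraries as log2(CPM + 1) minus the mean over the libraries, with rows grouped by role and vertical lines between microglia alone, untreated and fibril-loaded neurons. Red is above and blue below the gene's own mean; the dark cells lie mostly in genes of low count, such as Pfkl, Vegfa and Ankrd37, and the Bnip3 row is reddest in libraries 2 and 3 with untreated neurons.

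Microglia kept for 6 h with untreated neurons were compared with microglia alone. Contact with neurons cannot be told apart here from other handling of the co-cultures only, such as separation from the neurons. Hk2, Hif1a, Bnip3 and P4ha1 were higher and Gpi1 was lower at an unadjusted p below 0.05. No gene of the 37 passed in edgeR after BH adjustment, where 0.639% of all genes did (0.461% higher, 0.177% lower). DESeq2 called 2 of the 37, Hk2 and P4ha1, beside 4.11% of all genes, and limma on the deposited normalized values called 1, Hk2, beside 0.718%. The 4 higher genes stand beside 4.66% of all genes tested higher at that p, and the 1 lower gene beside 5.67%; in all, 13.5% of the 37 and 10.3% of all genes were below it. Ranges of CPM were apart for 2 genes upward (Hk2 and P4ha1), beside 4.9% of all genes, and for 3 downward (Gpi1, Aldoa and Pgam1), beside 5.45%. The median log2 fold change was 0.10 over the 37 genes and -0.05 over all genes, 0.50 over the 18 HIF pathway genes and -0.10 over the 19 glycolytic and transporter genes. Values above 0 were found in 14 of the 18 and 7 of the 19, beside 47.7% of all genes. The median over the 37 was 0.29 without library 2 and 0.028 without library 1 of microglia alone.

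The co-cultures with fibril-loaded neurons were compared with the same libraries of microglia alone. Hk2 and Hif1a were higher here too, while Hk1, Gpi1, Aldoa, Pgam1, Pkm and Ndrg1 were lower at an unadjusted p below 0.05. In edgeR 0 of the 37 passed after adjustment, beside 0.319% of all genes (0.266% higher, 0.0532% lower), and DESeq2 called 2 (Hk2 higher and Ndrg1 lower), beside 2.03% of all genes, and limma 0, beside 0.355%. The 2 higher genes stand beside 4.25% of all genes and the 6 lower beside 3.89%; together they are 21.6% of the 37, beside 8.14%. Ranges were apart for 3 genes upward (Hk2, Hif1a and P4ha1), beside 2.7% of all genes, and for 6 downward (Gpi1, Aldoa, Gapdh, Pgam1, Pkm and Ndrg1), beside 2.92%. The 8 genes below that p became 4, with 2 lower, without library 3 with fibrils. They became 5, with 2 lower, without the library with the fewest detected genes in each group, a setting chosen after seeing the data. Values above 0 were found in 10 of the 18 HIF pathway genes and 5 of the 19 glycolytic and transporter genes, beside 47.9% of all genes. The median log2 fold change of the 37 was -0.14, and -0.04 over all genes. It was -0.32 without library 4 and 0.16 without library 2 of microglia alone, so its sign rests on single libraries. As this comparison shares its controls with the one before, the 2 do not count as independent of each other.

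**Figure D4:**
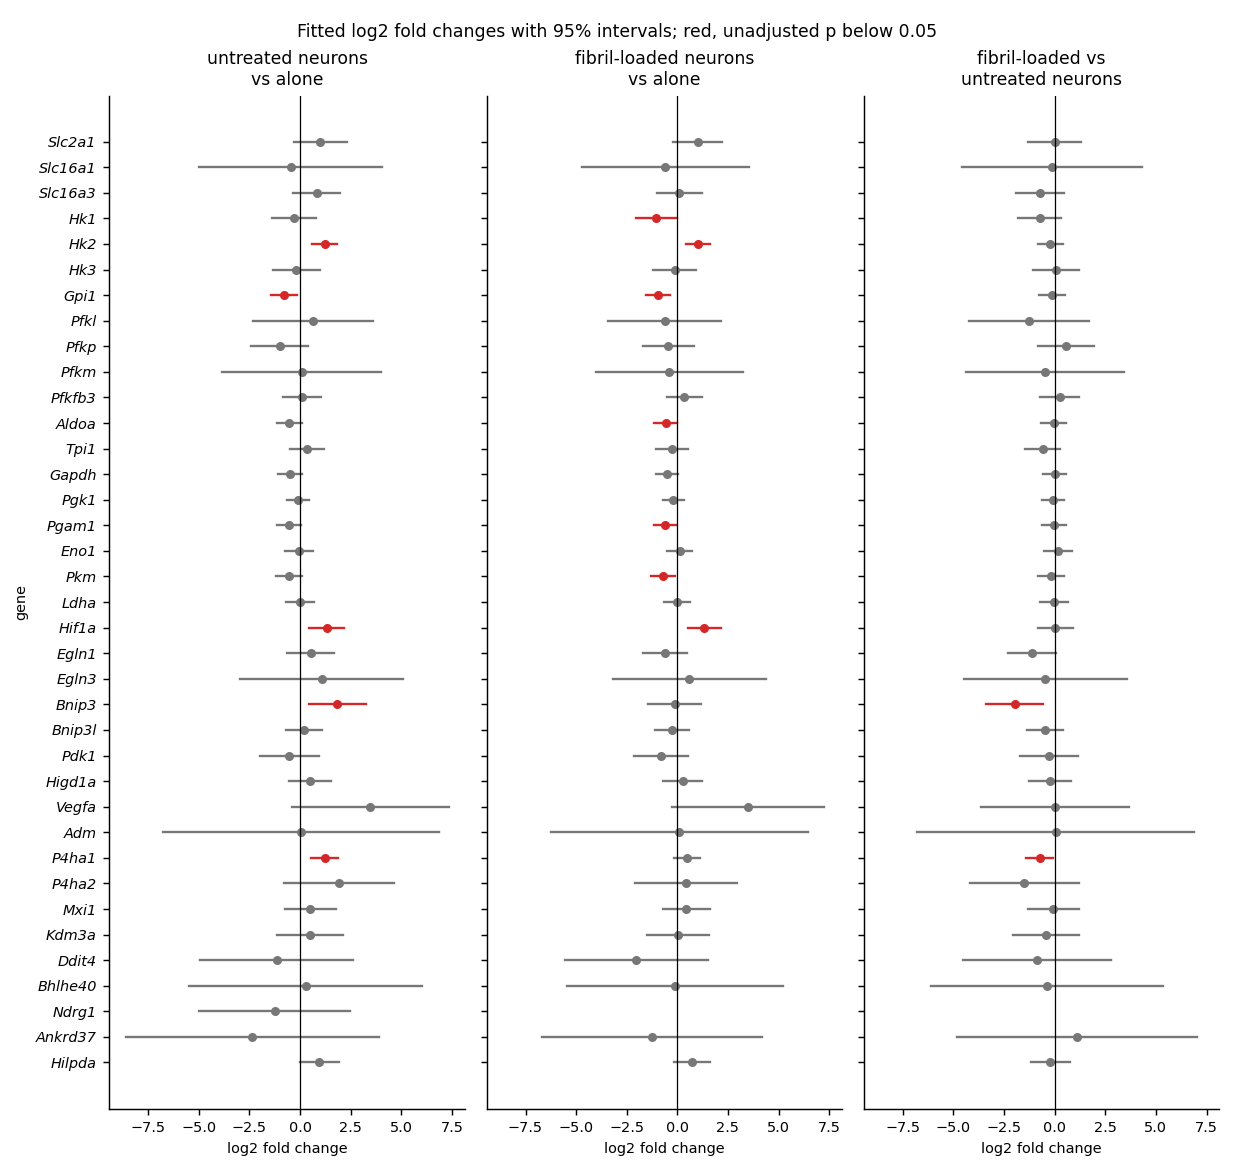
Fitted log2 fold change (points) with its 95% interval (lines) for the 37 genes in the 3 comparisons, red where the unadjusted edgeR p is below 0.05; Ndrg1 is not drawn in the comparisons with fibril-loaded neurons, where it has 1 count. Intervals of Hk2 and Hif1a lie above 0 in both comparisons with microglia alone, and Bnip3 and P4ha1 lie below 0 between the co-cultures.

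Co-cultures with fibril-loaded and with untreated neurons were compared directly. The fibrils cannot be told apart here from any handling that only the loaded neurons had, such as the wash. Bnip3, P4ha1 and Ndrg1 were lower with fibrils at an unadjusted p below 0.05, all 3 from the list of HIF targets. None of the 37 was higher at that p. The libraries are those of the comparisons above, so this one is not independent of them. With fibril-loaded neurons against microglia alone the log2 fold change was -0.14 for Bnip3 and 0.47 for P4ha1, while Ndrg1 was lower there too. No gene in the whole table passed in edgeR (0% of 11276), and of the 37 DESeq2 called 1 (Ndrg1), beside 1.43% of all genes, and limma 0, beside 0%. The 3 lower genes, 8.11% of the 37, stand beside 1.3% of all genes lower, 2.64% higher and 3.95% in either direction. Ranges were apart for 5 genes downward (Slc16a3, Egln1, Bnip3, P4ha1 and Ndrg1), beside 2.3% of all genes, and for 0 upward, beside 2.39%. The median log2 fold change was -0.21 over the 37 and -0.41 over the 18 HIF pathway genes, where all genes had 0, and 9 of the 37 lay above 0, beside 49.8% of all genes. The median over the 37 was -0.38 without library 3 and -0.0903 without library 1 with untreated neurons. The 95% intervals of the 37 genes reached a median of 1.17 to either side on the log2 scale in this comparison.

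Other metabolic and hypoxia genes were read for comparison. In the list of 34 further hypoxia targets, 27 were tested. Rab20, a HIF-induced vesicle gene, was at 15.7 ± 13.03, 67.7 ± 40.6 and 70.9 ± 15.7 CPM (edgeR adjusted p = 0.143 and 0.141 against microglia alone). The lipid droplet coat gene Plin2 was at 876 ± 171, 1318 ± 597 and 1948 ± 344 CPM (adjusted p = 0.1 with fibril-loaded neurons), and the nuclear receptor gene Rora at 41.03 ± 12.2, 25.4 ± 16.4 and 5.75 ± 2.65 CPM (adjusted p = 0.141). In this list 2 genes were higher and 2 lower at an unadjusted p below 0.05 with untreated neurons and 3 higher and 2 lower with fibril-loaded neurons, each against microglia alone. These were 14.8% and 18.5% of the tested genes of the list, beside 10.3% and 8.14% of all genes.

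Genes that feed and regulate HIF, and the pathways around glycolysis, gave no gene that passed in edgeR in any comparison. Of all genes, 0.639%, 0.319% and 0% passed in the 3 comparisons. Of 13 tested HIF partners, Vhl, which carries the modified subunit to its destruction, was at 10.7 ± 6.58, 31.2 ± 17.9 and 31.5 ± 11.3 CPM (edgeR unadjusted p = 0.0444 with fibril-loaded neurons against microglia alone). Arnt2, a partner subunit of neurons, had no count with untreated neurons and means of 1.83 and 5.28 CPM in the others. Of 15 tested isozymes, sugar transporters and regulators, Pfkfb4, a HIF-induced relative of Pfkfb3, was at 27.1 ± 20.1, 61.6 ± 14.2 and 57.8 ± 39.1 CPM (unadjusted p = 0.0489 with untreated neurons). Eno2, the enolase of neurons, had counts in 2 libraries of microglia alone, none with untreated and 1 with fibril-loaded neurons, where it was at 28.3 CPM. Aldoc, the aldolase of astrocytes, was at 17.4 ± 10.6, 12.4 ± 3.44 and 22.6 ± 13.8 CPM.

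In the pentose phosphate pathway, which draws on glucose 6-phosphate to make NADPH, 8 of 8 genes were tested. At an unadjusted p below 0.05, 1 was higher and 0 lower with untreated neurons and 1 higher and 2 lower with fibril-loaded neurons, each against microglia alone. These were 12.5% and 37.5% of the 8, beside 10.3% and 8.14% of all genes. H6pd, its enzyme in the endoplasmic reticulum, was at 17.9, 43.2, 61.1 and 29.1 CPM in microglia alone, 126, 103 and 62.4 CPM with untreated and 74.4, 70.3, 77.1 and 101 CPM with fibril-loaded neurons, with every co-culture library above microglia alone (edgeR adjusted p = 0.195 and 0.434). G6pdx, which opens the pathway in the cytosol, was at 136 ± 37.98, 108 ± 31.99 and 73.05 ± 22.9 CPM. Pgls, the next enzyme, was at 68.3 ± 24.3, 67.5 ± 32.7 and 22.9 ± 10.6 CPM (adjusted p = 0.241 with fibril-loaded neurons against microglia alone). Among 30 tested genes of pyruvate entry and the tricarboxylic acid cycle, 1 was higher and 2 lower with untreated and 1 higher and 1 lower with fibril-loaded neurons at that p. These were 10% and 6.67% of the 30, beside the same 10.3% and 8.14% of all genes. Pdhx, a structural part of pyruvate dehydrogenase, was at 32.4, 22.4, 4.43 and 27.9 CPM in microglia alone, 1.27, 1.43 and 0 CPM with untreated and 10.9, 21.4, 12.5 and 24.4 CPM with fibril-loaded neurons. It was low in all 3 libraries with untreated neurons (adjusted p = 0.202 against microglia alone). Sdhc, a subunit of succinate dehydrogenase, was at 159.9 ± 90.2, 297 ± 37.2 and 267 ± 26.9 CPM. Idh3b, of isocitrate dehydrogenase, was at 151 ± 53.1, 79.95 ± 9.29 and 113 ± 42.8 CPM, and the pyruvate dehydrogenase phosphatase gene Pdp1 at means of 9.23, 5.18 and 0.117 CPM. Of 14 tested glycogen genes, 1 (7.14%) was lower and 0 higher at that p in both comparisons, beside 10.3% and 8.14% of all genes. This was Gyg, which primes glycogen synthesis and was at 82.2, 134, 67.05 and 333 CPM in microglia alone, 86.2, 50.7 and 57.7 CPM with untreated and 62.4, 49.6, 14.6 and 35.5 CPM with fibril-loaded neurons (adjusted p = 0.116 for the last group against microglia alone).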

How the data were processed

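Per the labels' protocols, RNA was isolated on columns for small inputs and libraries were made with a kit that reads transcripts at their 3′ end. The authors deposited raw counts per gene symbol and a normalized table, used as a score: each value was tested to be the count divided by 1 factor per library and rounded, and at least 99.9% of values in each library lay within 0.51 of that. STAR, Partek, DESeq2 and mm10 are named, without versions, per the submitters' processing notes. Annotation, strand setting and duplicate handling are not given in the sources used here.

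Groups come from the labelled treatment, and libraries were numbered in order of deposition. No 2 libraries held identical counts. Tests on the counts used edgeR 4.0.16 under R 4.3.3 (filterByExpr, TMM, quasi-likelihood test on all 11 libraries, group as the only term, two-sided, BH adjustment over 11276 genes, threshold 0.05). All 37 genes passed the filter. The code was tested on simulated data. Alternatives were RLE scaling, no Rn45s, no filter, a mean of at least 5 CPM, DESeq2 1.42.0, limma 3.58.1 on log2(normalized value + 1), only 2 groups, Eno1b added to Eno1, each library left out, and, both added after seeing the data, the 3 libraries with the fewest genes left out and the sets of title serial numbers as a block. The members and lists were chosen with earlier results of these data known.

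By rule, values in every library are given for members with an unadjusted p below 0.05 or CPM ranges apart in a comparison and for a fixed set (Slc2a1, Hk2, Pfkfb3, Gapdh, Pkm, Ldha, Slc16a3, Hif1a, Vegfa, Bnip3), promoters for 4 members with the smallest p, and up to 4 genes with the smallest unadjusted p below 0.05 per further list, with Eno2 and Aldoc always. A gene of the further lists is not reported here. Loci and promoters are from RefSeq on GRCm38.p6, in which all 37 symbols matched.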

Additional observations from a re-analysis of the deposited data

Results flagged for a closer look

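In the 2 groups of 4 libraries, 6 levels of 5 genes had a single library far from the other 3, among 74 sets of 4 values. The set of Ndrg1 with fibril-loaded neurons, which held 1 count, was passed over in this search. For values with a normal spread, chance alone would mark about 1 set in 20. That rate does not apply to sets with many 0 counts, such as those of Adm. In library 1 of microglia alone, Aldoa was at 729.5 CPM where the others ran from 344.7 to 372 CPM, and Pgam1 was at 669.8 CPM against 390.2 to 428 CPM. Library 4 of microglia alone had Ndrg1 at 27.4 CPM against 7.97 to 9.72 CPM. Slc16a1 was at 12.6 CPM in library 1 with fibril-loaded neurons, against 0.199 to 1.03 CPM in the others. Adm was at 6.15 CPM in library 2 of microglia alone and at 6.57 CPM in library 3 with fibril-loaded neurons, and had no count in the other libraries of these groups.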

How the results depend on the processing

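In edgeR no member passed in any comparison under RLE scaling, without Rn45s, with a mean of at least 5 CPM, with 2 groups only, with Eno1b added to Eno1, on leaving out any 1 library (0 to 0 called) or without the 3 libraries with the fewest genes. Without a low-count filter edgeR called 1 (Hk2, adjusted p = 0.0266) with untreated neurons against microglia alone. There DESeq2 called 2, Hk2 (adjusted p = 0.00364) and P4ha1 (adjusted p = 0.0137), and limma 1, Hk2 (adjusted p = 0.0486). Over 17 alternatives the adjusted p ran from 0.00364 to 0.354 for Hk2 and from 0.0137 to 0.338 for P4ha1. With fibril-loaded neurons against microglia alone DESeq2 called 2, Hk2 (adjusted p = 0.0282, range over 18 alternatives 0.0282 to 0.467) and Ndrg1 (2.47e-06, range 2.47e-06 to 0.384). Between the co-cultures DESeq2 called 1, Ndrg1 (3.63e-04, range 3.63e-04 to 1). None of the members with an unadjusted p below 0.05 changed direction in any of these. On leaving out 1 library, members at an unadjusted p below 0.05 numbered 4 to 7, 4 to 8 and 2 to 4, and the median log2 fold change ran from 0.028 to 0.29, from -0.32 to 0.16 and from -0.38 to -0.0903. The count for fibril-loaded neurons against microglia alone was 5 without the 3 libraries with the fewest genes, and the median with untreated neurons was 0.25 in limma. The causes were not tested. With the sets of title serial numbers as a block, added after seeing the data, edgeR called 0 members in each comparison, 5, 7 and 4 members had an unadjusted p below 0.05 and the medians were 0.18, -0.12 and -0.16; of all genes 0.842%, 0.585% and 0% were called. With this block, edgeR gave Hif1a an adjusted p of 0.109 and 0.111 and Hk2 of 0.105 and 0.109 against microglia alone. Each was higher in 3 of 3 and 4 of 4 sets. For Hk2, and for Hif1a with fibril-loaded neurons, this had to be so, since the groups did not overlap. The share of all genes higher in every set was not counted. Deviations from the group means of libraries of 1 set correlated at -0.024 to 0.069 (median 0.039), 0 of 10 pairs above 0.1. For the 30 pairs from different sets and groups the correlation was -0.052 to 0.049 (median -0.017). Of 11 libraries, 5 correlated best with their own set. Precision is limited by the spread between libraries (common biological coefficient of variation 1.15).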
